A study of Bos taurus with 56 samples.

Results

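Accessible chromatin of 8-cell embryos was compared with that of germinal vesicle (GV) oocytes in cattle (Bos taurus), using every peak of the 2 lists deposited for these stages. The 8-cell list held 59186 peaks and the GV list 4382, together 63568 of the 673059 peaks in the 11 lists of the series. Members were split by position alone: a peak was called shared when at least 1 bp of it lay in a peak of the other list, and otherwise 8-cell only or GV only. The split gave 57929 8-cell-only peaks, 1257 8-cell peaks shared with GV oocytes, 1293 GV peaks shared with 8-cell embryos, and 3089 GV-only peaks. The shared numbers differ because a peak could overlap several peaks of the other list.

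The study profiled pooled oocytes and embryos by ATAC-seq, an assay in which a transposase cuts and tags open DNA, in 56 libraries of 11 groups from the oocyte to day 14. The 8-cell list was merged by the authors from 5 libraries and the GV list from 6, per the series description. The labels give no strain, treatment or culture condition for either group, and both consist of whole pooled oocytes or embryos. Each list gives only the chromosome, start and end of a peak on the cattle build UMD3.1.

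The GV oocyte is a fully grown, immature egg arrested in the prophase of the first meiotic division, with its chromosomes inside an intact nucleus and with transcription largely silent at the end of growth. The embryo then develops on stored maternal RNA and protein until it activates its own genome, which in cattle happens mainly around the 8-cell to 16-cell stage. Open chromatin marks places where regulatory proteins can reach DNA, such as promoters and enhancers. The comparison thus sets open regions of the immature egg beside those found when the embryonic genome becomes active. No gene could be assigned to a peak, because the annotation at hand is of another build.

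Without scores, read counts or lists per library, depth was unknown, replicate libraries could not be set against each other, and no p-value is given. Intervals are 95% exact (Clopper-Pearson) binomial intervals and cover counting error only, treating neighbouring peaks as independent. A region absent from a list is a region without a called peak, which can be closed chromatin or open chromatin missed at that depth. The narrowest peak was 217 bp in the 8-cell list and 219 bp in the GV list.

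The 8-cell list had 13.5 times as many peaks as the GV list and covered 19.5 times as many bases, 36.8 Mb against 1.89 Mb. These are 1.38% and 0.0710% of the 2661 Mb spanned by the lists. The overlap with GV peaks took in 2.12% of the 8-cell list (interval 2.01% to 2.24%). The GV list has 7.40 peaks for every 100 8-cell peaks, and with pairs of nearly 1 to 1 that length caps the share near 7.40%. In the other direction 29.5% of GV peaks (interval 28.2% to 30.9%) overlapped an 8-cell peak. This share depends on the length of the 8-cell list, and was 8.69% when only as many of the widest 8-cell peaks were kept as there are GV peaks. The bases open in both lists came to 0.552 Mb, which is 1.50% of the 8-cell bases and 29.2% of the GV bases. The rule of 1 bp carries part of this: with an overlap of at least 50% of each peak required, the values were 0.791% of 8-cell peaks and 10.7% of GV peaks.

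GV peaks were found in the 8-cell list about as often as MII oocyte peaks and less often than peaks of the embryonic stages in between. The share in the 8-cell list was 29.5% for GV, 28.5% for MII (interval 25.2% to 31.9%), 35.2% for 2-cell (interval 33.4% to 37.1%) and 33.0% for 4-cell peaks (interval 31.8% to 34.3%). The GV interval overlaps that of MII oocytes and lies below those of the 2-cell and 4-cell lists. Of all GV peaks, 53.1% were found in the day 14 list, 33.9% in the morula list and 28.7% in the 16-cell list, so that the 8-cell list was not the one that held most of them. The day 14 list covers 4.66% of the span and the morula list 2.47%, more than the 8-cell list.

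Shared peaks were wider than the unshared peaks of the same list. The 8-cell list was wider as a whole, with a median of 458 bp against 369 bp in the GV list. In the 8-cell list the median width was 841 bp for shared peaks (quartiles 523 and 1356 bp) and 454 bp for 8-cell-only peaks (quartiles 332 and 725 bp). In the GV list it was 403 bp for shared peaks (quartiles 325 and 570 bp) and 360 bp for GV-only peaks (quartiles 306 and 437 bp). Peaks of at least 1000 bp made up 41.0% of the shared 8-cell peaks, 13.5% of the 8-cell-only peaks, 6.57% of the shared GV peaks and 0.453% of the GV-only peaks. The last of these is 14 of 3089 peaks.

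The relation between width and sharing differed in form between the lists. Among 8-cell peaks the shared percentage climbed through all quintiles of width, at 0.710%, 0.870%, 1.28%, 2.44% and 5.32% from narrowest to widest. Among GV peaks it was nearly flat over the 4 narrower quintiles, between 22.6% and 26.3%, and reached 48.8% (interval 45.4% to 52.2%) in the widest, which starts at 508 bp. A wider peak covers more bases that another peak can meet, and the part of this in the trend was not tested.

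**Figure D1:**
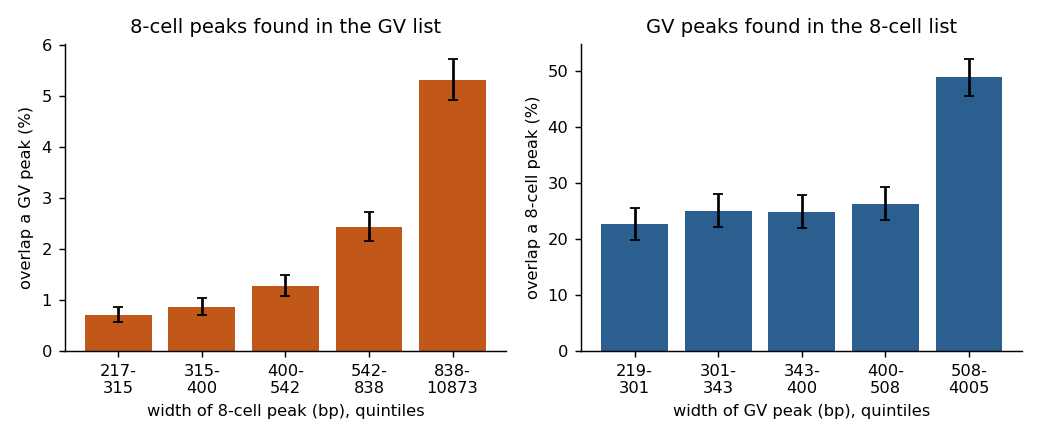
Percentage of peaks that overlap a peak of the other list (vertical axes) by quintile of peak width in bp (horizontal axes), for 8-cell peaks on the left and GV peaks on the right; bars are shares of 1 merged list each and error bars 95% exact binomial intervals. The widest quintile holds 5.32% shared 8-cell peaks and 48.8% shared GV peaks, and only the 8-cell panel climbs through all quintiles.

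Where the lists met, the 8-cell peak usually extended beyond the GV peak. Shared peaks formed 1318 overlapping pairs, and in 80.6% of them the 8-cell peak was the wider. The 8-cell list had wider peaks as a whole, and the part of this in the pairs was not tested. The 8-cell peak measured a median of 878 bp and the GV peak 405 bp, with a median width ratio of 1.87 (quartiles 1.09 and 3.43). In 51.3% of pairs the GV peak lay wholly inside the 8-cell peak, whereas in 5.61% the 8-cell peak lay wholly inside the GV peak. The centres were a median of 180 bp apart, within 500 bp in 83.8% of pairs and within 100 bp in 33.5%. Nearly all pairings were 1 to 1: 1211 of the 1257 shared 8-cell peaks held 1 GV peak, 36 held 2 and 10 held 3 to 6, and only 25 of the 1293 shared GV peaks met 2 8-cell peaks.

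Under the 1 bp rule, 61.2% of the GV peaks shared with 8-cell embryos had no peak in the 2-cell or the 4-cell list. Of the 1293 shared GV peaks, 791 (interval 58.5% to 63.8%) were in neither the 2-cell nor the 4-cell list. A further 325 (25.1%) were in both, 153 (11.8%) in the 4-cell list alone and 24 (1.86%) in the 2-cell list alone. In all, 38.8% of the shared GV peaks (interval 36.2% to 41.5%) were found in at least 1 of the 2 lists, against 3.30% of the GV-only peaks (interval 2.70% to 3.99%). The majority depends on the overlap rule: with 50% of both peaks shared, 50.9% of the 468 GV peaks then shared and 4.32% of the GV-only peaks were in at least 1 of these lists. Without regions of the MII or blastocyst lists the values were 15.7% and 2.13%. Weighted to the widths of the shared peaks, the GV-only value was 4.19%. The 2-cell and 4-cell lists hold 2636 and 5810 peaks, far fewer than the 8-cell list, which limits how many shared peaks they could hold.

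Read forward from the egg, a GV region with a peak at the 2-cell and the 4-cell stage nearly always had one at the 8-cell stage. The 8-cell list held 325 of the 342 GV peaks found at both earlier stages (95.0%, interval 92.2% to 97.1%). It held 153 of the 220 found at the 4-cell stage alone (69.5%, interval 63.0% to 75.6%) and 24 of the 42 found at the 2-cell stage alone (57.1%, interval 41.0% to 72.3%). Of the 3778 GV peaks found at neither, it held 791 (20.9%, interval 19.6% to 22.3%). These 4 groups differ in where else they occur, since peaks of the first group are also common in the short MII and blastocyst lists. Outside all regions with an MII or blastocyst peak, the 4 shares were 77.3% of 22 peaks, 67.5% of 157, 68.0% of 25 and 20.4% of 3696. Only 22 of the 342 peaks of the first group were left there, with an interval of 54.6% to 92.2%. The part of peak width in these shares was not tested.

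The shared peaks with and without an early peak differed widely in the short MII and blastocyst lists. Those found at both the 2-cell and 4-cell stages were in the blastocyst list in 89.8% of cases and in the in vivo blastocyst list in 83.7%, and 36.6% of them were in the MII list. For those found at neither stage the values were 3.03%, 2.40% and 0.759%. The longer embryonic lists held both kinds: the 16-cell list had 95.4% and 74.2% of them, the morula list 91.7% and 79.4%, the in vivo morula list 77.2% and 62.6%, and the day 14 list 97.8% and 80.8%. Of the 791 peaks found at neither stage, 435 (55.0%) belonged to the 16-cell list and to each morula list. Their GV peaks were narrower, with a median of 367 bp against 618 bp for those found at both stages, while the 8-cell peaks over them were of similar median width, 855 and 923 bp.

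**Figure D2:**
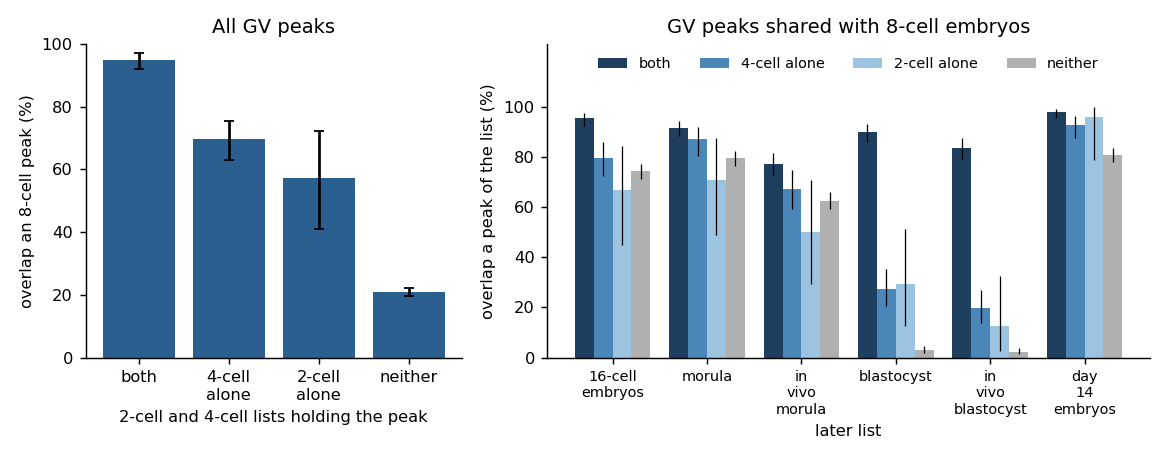
Left, percentage of all GV peaks that overlap an 8-cell peak, by whether the 2-cell and 4-cell lists hold the GV peak; right, percentage of the 1293 shared GV peaks found in each later list, in the same 4 groups; error bars are 95% exact binomial intervals. The left bars run from 95.0% for GV peaks found at both stages to 20.9% for those found at neither, and on the right the groups lie farthest apart, in percentage points, in the 2 blastocyst lists.

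The classes also differed in the lists that the split did not use. Shared peaks recurred widely, with 83.4% of the shared 8-cell peaks and 80.0% of the shared GV peaks in the 16-cell list, 85.2% and 83.2% in the morula list, and 89.0% and 86.8% in the day 14 list. Of the 8-cell-only peaks, 44.2% were in the 16-cell list, 39.0% in the morula list and 36.0% in the day 14 list. Of the GV-only peaks, 7.22% occurred at the 16-cell stage and 13.2% in the morula list, but 39.0% (interval 37.3% to 40.8%) were in the day 14 list. In the in vivo morula list the shares were 26.4% for 8-cell-only and 7.54% for GV-only peaks. The day 14 share was thus below the 16-cell and morula shares and above the in vivo morula share for 8-cell-only peaks, and above all 3 for GV-only peaks. Weighted to the widths of the shared 8-cell peaks, the 8-cell-only values became 63.5% for the 16-cell, 54.9% for the morula, 40.9% for the in vivo morula and 47.1% for the day 14 list, closer to those of shared peaks but still below them.

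A large part of each unshared class was found nowhere else in the series. Of the 8-cell-only peaks, 21881 (37.8%) were in none of the other 9 lists, and of the GV-only peaks 1698 (55.0%, interval 53.2% to 56.7%). Shared peaks of this kind were 51 of the 8-cell list (4.06%) and 57 of the GV list (4.41%). A further 753 GV-only peaks (24.4%) were in the day 14 list and in no other of these 9, compared with 4225 8-cell-only peaks (7.29%). At the other extreme, 105 shared 8-cell peaks and 110 shared GV peaks had a peak in all 9 other lists. Absent at the 8-cell stage, 560 GV-only peaks (18.1%) had a peak again at the 16-cell stage or in either morula list.

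**Figure D3:**
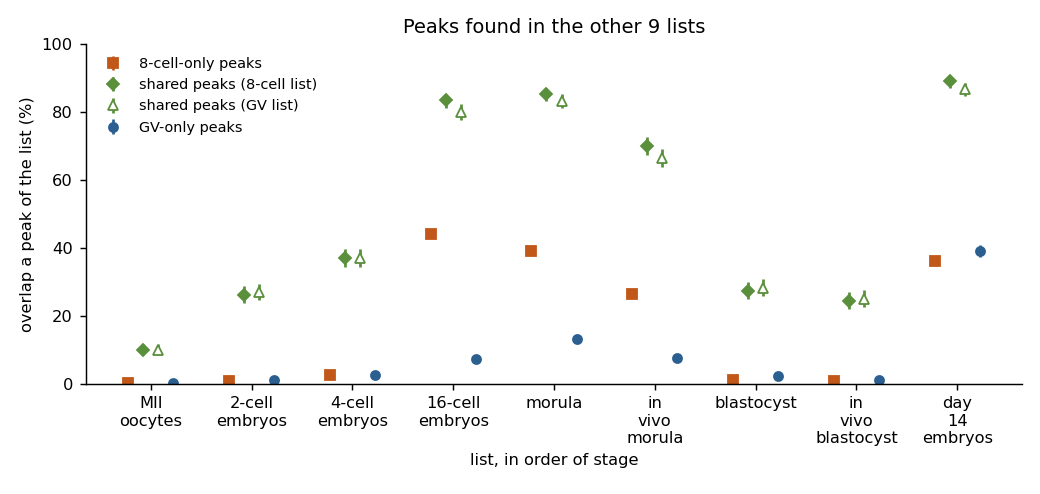
Percentage of 8-cell-only, shared and GV-only peaks that overlap a peak of each of the other 9 lists, in order of stage; points are shares of 1 merged list and bars 95% exact binomial intervals. Shared peaks lie above both unshared classes in all 9 lists, and GV-only peaks lie below 8-cell-only peaks in the 16-cell and both morula lists and above them in the day 14 list (36.0% for 8-cell-only and 39.0% for GV-only peaks).

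Peaks were spread more evenly over chromosomes in 8-cell embryos than in GV oocytes. Peak density ran from 13.0 per Mb on X to 34.7 per Mb on chromosome 18 in 8-cell embryos, a 2.68-fold range, and from 0.537 per Mb on chromosome 22 to 3.92 per Mb on chromosome 18 in GV oocytes, a 7.30-fold range. Taken relative to each list's own mean, density lay between 0.75 and 1.33 on 28 of the 30 chromosomes in 8-cell embryos and on 12 in GV oocytes. Chromosome 18 was the densest in both lists.

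The relative density was highest in 8-cell embryos over GV oocytes on chromosome 22 (0.832 and 0.326 times the list mean, a ratio of 2.55), chromosome 1 (0.950 and 0.395 times, a ratio of 2.40) and chromosome 7 (1.13 and 0.739 times, a ratio of 1.53). It was lowest on chromosome 13 (0.957 and 2.11 times, a ratio of 0.453), X (0.582 and 1.20 times, a ratio of 0.486) and chromosome 24 (0.791 and 1.55 times, a ratio of 0.511). Chromosome 22 carried 1137 8-cell peaks and 33 GV peaks, and chromosome 13 carried 1793 8-cell peaks and 293 GV peaks. Short chromosomes held a larger part of the GV list than of the 8-cell list. The 10 shortest autosomes had 21.9% of 8-cell peaks and 29.2% of GV peaks, at 1.07 and 1.43 times the list means. The 10 longest had 47.2% and 34.2%, at 1.03 and 0.748 times.

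**Figure D4:**
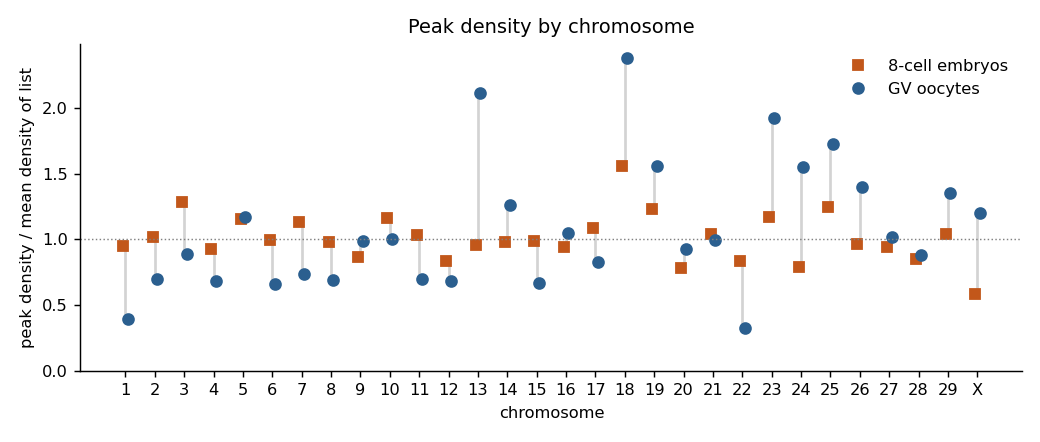
Peak density of each chromosome divided by the mean density of its list, for 8-cell embryos (squares) and GV oocytes (circles); grey lines join the 2 lists and the dotted line marks the list mean. The 8-cell values stay between 0.582 and 1.56, and the GV values run from 0.326 on chromosome 22 to 2.38 on chromosome 18.

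The share of GV peaks kept in the 8-cell list also varied by chromosome, and its relation to density was not tested. It was highest on chromosome 14 (83 of 176 peaks, 47.2%), chromosome 6 (61 of 130, 46.9%) and X (137 of 294, 46.6%, interval 40.8% to 52.5%), and lowest on chromosome 24 (18 of 160, 11.3%, interval 6.81% to 17.2%). Of the oocyte-dense chromosomes, chromosome 18 shared 39.4% of its GV peaks (interval 33.4% to 45.6%) and chromosome 13 shared 19.1% (interval 14.8% to 24.1%). A few windows carried the 2 highest of these shares. Without the 10 fullest GV windows of 1 Mb, chromosome 14 shared 26 of 106 GV peaks (24.5%) and chromosome 6 shared 23 of 88 (26.1%), while X shared 45.1% of 277 (interval 39.2% to 51.2%) and chromosome 18 shared 33.0%. This setting was added after seeing the data. The X chromosome had the sparsest 8-cell peaks of all, and 6.48% of them were shared with GV oocytes, compared with a median of 1.85% over the 30 chromosomes.

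GV peaks were concentrated toward the distal ends of the autosomes, and 8-cell peaks were not. Cattle autosomes carry the centromere at one end, and their numbering starts there, so the last bases are those next to the distal telomere. The last 5 Mb of the 29 autosomes make up 5.77% of their span and held 5.04% of 8-cell peaks (interval 4.87% to 5.23%) and 16.2% of GV peaks (interval 15.1% to 17.4%), which is 0.874 and 2.81 times the mean density of the lists. The difference lay mostly in the GV-only peaks: 19.2% of them lay there (3.32 times the mean, interval 3.08 to 3.58), against 8.74% of the shared GV peaks (1.51 times, interval 1.24 to 1.82). Of the 8-cell-only peaks 4.96% lay there (0.860 times).

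The density of GV-only peaks declined step by step away from the end. It was 3.57 times the class mean within 1 Mb and again 3.57 times between 1 and 2 Mb, 3.15 times between 2 and 5 Mb, 2.10 times between 5 and 10 Mb and 1.48 times between 10 and 20 Mb. The 8-cell-only values over the same distances were 0.889, 0.912, 0.833, 1.09 and 1.07 times. As a result the number of 8-cell peaks for each GV peak was 3.86 within 1 Mb of the end and 19.1 beyond 20 Mb. The pattern recurred across chromosomes, with the GV-only share in the last 5 Mb above the 8-cell-only share on 29 of 29 autosomes. The GV-only share there was above the chromosome's share of span on 28 of 29, chromosome 27 being the exception at 7.81% of 64 peaks. Examples are chromosome 17, where 12.0% of 8-cell-only peaks and 39.2% of the 79 GV-only peaks lay in the last 5 Mb, chromosome 28 (8.73% and 38.5% of 52) and chromosome 9 (3.22% and 33.3% of 126), which were chosen after their values were seen.

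Among GV peaks, those between 1 and 5 Mb from the distal ends were the least often shared with 8-cell embryos. The shared percentage was 23.9% within 1 Mb of the end (interval 17.5% to 31.3%), 13.6% between 1 and 2 Mb, 12.1% between 2 and 5 Mb (interval 8.92% to 15.9%), 25.1% between 5 and 10 Mb, 23.9% between 10 and 20 Mb and 34.0% beyond (interval 32.0% to 35.9%). Distal and other GV-only peaks had overlapping intervals at day 14, with 36.3% of those in the last 5 Mb in the day 14 list (interval 32.3% to 40.4%) and 40.2% of those elsewhere (interval 38.2% to 42.2%). The day 14 list was itself dense near the ends, at 1.92 times its mean in the last 5 Mb. The 16-cell, morula and in vivo morula lists were near or below their means there, at 0.934, 1.04 and 0.691 times. The blastocyst and in vivo blastocyst lists were below theirs, at 0.634 and 0.421 times. The MII, 2-cell and 4-cell lists stood there at 1.64, 1.83 and 1.84 times, between the 8-cell and GV values. Within 1 Mb of the end that order did not hold. Density there was 3.37 times the list mean for GV, 3.45 for MII, 3.37 for 2-cell and 2.19 for 4-cell peaks.

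**Figure D5:**
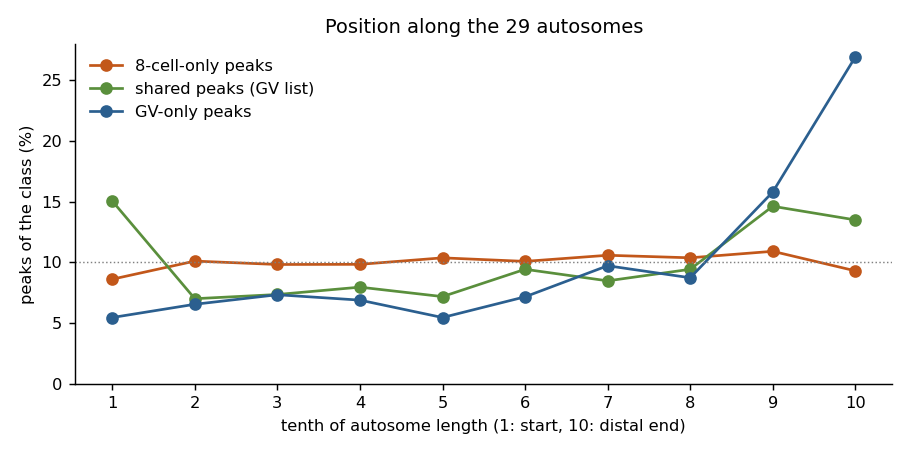
Percentage of 8-cell-only, shared (GV list) and GV-only peaks in 10 equal parts of autosome length, from the start (1) to the distal end (10), summed over 29 autosomes; the dotted line marks an even spread. GV-only peaks reach 26.9% at the distal end (10), where 8-cell-only peaks have 9.30%, and shared peaks are raised at both ends.

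At the opposite, centromeric end the shared peaks stood out from the unshared classes, and 1 stretch carried much of this. The first 5 Mb held 9.63% of the shared 8-cell peaks (1.67 times the class mean) and 9.95% of the shared GV peaks (1.72 times), against 5.05% of the 8-cell-only peaks (0.874 times) and 3.85% of the GV-only peaks (0.668 times). The first Mb of chromosome 14 alone held 57 of the shared GV peaks. Without the 10 fullest GV windows of 1 Mb the ratio was 0.994 for shared 8-cell peaks and 1.003 for shared GV peaks, while the distal ratio of GV-only peaks was 3.33. Closer to the start an excess was left: without these windows, a setting added after seeing the data, density in the first 1 Mb was 2.24 times the class mean for shared 8-cell peaks (interval 1.46 to 3.29) and 2.31 times for shared GV peaks (interval 1.52 to 3.37). With all windows these values were 5.89 and 6.22 times. The short lists of other stages, with all windows, were dense there too. Density in the first 1 Mb was 6.28 times the list mean for blastocyst, 4.85 for 2-cell and 4.09 for MII peaks. It was 3.18 times for in vivo blastocyst and 2.70 times for 4-cell peaks. The 16-cell, morula, in vivo morula and day 14 lists were below their means, at 0.767, 0.815, 0.601 and 0.891 times.

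In windows of 1 Mb, 8-cell peaks were nearly everywhere and GV peaks gathered in places. Of 2678 windows, 99.9% held an 8-cell peak and 56.9% a GV peak, and 1 window had a GV peak without an 8-cell peak. Windows with more GV peaks also held more 8-cell peaks: the median number of 8-cell peaks was 17 in windows without a GV peak, 20 with 1, 23 with 2, 23 with 3, 26 with 4 to 9 and 29.5 in the 40 windows with 10 or more. The 10 fullest windows of each list held 1.68% of 8-cell peaks and 5.50% of GV peaks. In those GV windows 163 of 241 peaks (67.6%) were shared, against 27.3% of GV peaks elsewhere.

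The fullest 8-cell windows lay on chromosome 23 between 31 and 32 Mb (126 8-cell peaks and 2 GV peaks), chromosome 5 between 57 and 58 Mb (117 and 8) and chromosome 18 between 56 and 57 Mb (107 and 14). The fullest GV windows were those on chromosome 14 between 0 and 1 Mb (89 8-cell peaks and 70 GV peaks, 57 of these shared), chromosome 18 between 57 and 58 Mb (79 and 29, 17 shared) and chromosome 6 between 6 and 7 Mb (46 and 26, all 26 shared). The list of 10 also held a distal window of the other kind, on chromosome 9 between 104 and 105 Mb, where 16 8-cell peaks and 15 GV peaks lay with none in common. It was chosen after its values were seen.

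The median distance from a GV-only peak to the nearest 8-cell peak was 19.7 kb (quartiles 5.06 and 52.5 kb), with 9.45% within 1 kb, 35.1% within 10 kb and 10.7% farther than 100 kb. Unshared peaks of the 2-cell and 4-cell lists lay a median of 18.3 and 14.4 kb away, and those of MII oocytes 21.8 kb. Neighbouring peaks within a list were a median of 13.6 kb apart in 8-cell embryos and 181 kb apart in GV oocytes.

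The widest shared regions were picked in 2 ways, by 8-cell width and by GV width. The widest GV peak was 4005 bp, so a wider 8-cell peak could have no GV peak of equal width. Among shared regions, the 5 widest 8-cell peaks lay on chromosome 3 from 8102792 to 8111890 (9099 bp), chromosome 18 from 57709437 to 57717387 (7951 bp), chromosome 21 from 33776188 to 33782938 (6751 bp), chromosome 8 from 80896487 to 80902584 (6098 bp) and chromosome 5 from 33334513 to 33340328 (5816 bp). The first spanned 6 separate GV peaks, the widest of 2375 bp, and had a peak in all 11 lists. The region on chromosome 18 spanned 4 GV peaks of up to 864 bp and was missing from the MII, 2-cell and in vivo blastocyst lists. The other 3 each covered a lone small GV peak, of 628 bp on chromosome 21, 288 bp on chromosome 8 and 277 bp on chromosome 5. Those on chromosomes 8 and 5 occurred in 6 lists, GV, 8-cell, 16-cell, morula, in vivo morula and day 14. A further 8-cell peak over 3 or more GV peaks, of 4368 bp on chromosome 14 (482899 to 487266), was part of the fullest GV window and had a peak in all 11 lists.

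Picked by GV width, the 5 widest shared GV peaks had 8-cell peaks of nearly the same extent. On X from 89972338 to 89976342 the 8-cell peak was 4084 bp wide and the GV peak 4005 bp, and on X from 27725464 to 27728665 they measured 3236 and 3202 bp. For chromosome 16 (55855021 to 55858497) the widths were 3053 and 3477 bp. For chromosome 6 (5904878 to 5908049) they were 3193 and 3172 bp. All 4 of these regions had a peak in every one of the 11 lists. The fifth, on chromosome 18 from 57604364 to 57607874 (3171 bp at the 8-cell stage and 3511 bp in GV oocytes), was found in the GV, 2-cell, 4-cell, 8-cell and day 14 lists and in none of the 16-cell, morula and blastocyst lists.

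Regions seen only on one side of the comparison differed in scale. The 5 widest 8-cell-only peaks measured 8348 to 10873 bp and the 5 widest GV-only peaks 1310 to 1766 bp. Of these 8-cell-only peaks, those on chromosome 8 (80832687 to 80843559) and chromosome 16 (7093000 to 7103228) had a peak at the 4-cell stage, and that on chromosome 16 recurred in every embryo list while both oocyte lists lacked it. The others, on X from 82265202 to 82274072, chromosome 6 from 49138428 to 49147248 and chromosome 7 from 17181990 to 17190337, had no 2-cell or 4-cell peak, and all 3 were found in the 16-cell list and in the morula list without an in vivo label. Of all GV-only peaks, 55.0% were in none of the other 9 lists and 3.30% were in the 2-cell or 4-cell list. Most of the 5 widest GV-only peaks, by contrast, were not unique to the egg. Those on chromosome 19 from 68374 to 70139, chromosome 8 from 36101544 to 36103172, X from 37805806 to 37807303 and chromosome 9 from 12945172 to 12946578 all had a peak in the 2-cell or 4-cell list and in the day 14 list. The fifth, on X from 108652224 to 108653533 (1310 bp), was found in the GV list alone.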

How the data were processed

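The authors deposited 1 merged peak list per stage, per the labels, with chromosome, start and end and no score; these positions are the other values used, and no count, signal or p-value was given. The tools named in the submitters' processing notes are Bowtie2 2.3, HOMER, MACS2 and bedtools, with build UMD3.1. Not given in the sources used here are thresholds, any shift for the transposase and the merging rule. Starts were read as counted from 0 and are printed counting from 1, so a start could be off by 1 base. Chromosome lengths were taken as the last position in any list.

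Overlap of at least 1 bp was counted, recovered on 3 simulated list pairs with planted overlaps, and equal to bedtools 2.31.1 for all 20 counts compared. Peak midpoints set windows (1 Mb) and ends (5 Mb). Regions named were the 5 widest of each class (shared by 8-cell width, shared by GV width, 8-cell only, GV only), the 3 widest over 3 or more peaks, the 3 fullest windows of each list and the 3 chromosomes with the highest and lowest density ratio. Members, lists and rules were chosen with earlier results of these data known. Width weighting used 10 width classes. Scripts ran in Python 3.11.15 with pandas 2.3.3, scipy 1.17.1, numpy 2.4.6 and, for figures, matplotlib 3.10.9.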

Additional observations from a re-analysis of the deposited data

How the results depend on the processing

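No paired analysis was possible because 1 merged list per group holds no replicate values. Of 53 alternatives for 23 results, 28 stayed within counting error of the value reported (within 1.5 times for the ratio of list lengths), 23 moved beyond it and 2 changed direction. The share of GV peaks in the 8-cell list was 10.7% with 50% of both peaks shared, 32.8% with peaks widened by 250 bp, 8.69% in as many of the widest 8-cell peaks as there are GV peaks, and 22.6% without regions of the MII or blastocyst lists. The share of 8-cell peaks in the GV list was 0.791% with 50% of both shared and 1.92% among peaks of at least 329 bp. For shared GV peaks in the 2-cell or 4-cell list the values were 50.9% with 50% of both shared, a majority in place of the 38.8% reported, 42.0% among peaks of at least 329 bp and 15.7% without regions of the MII or blastocyst lists. For GV-only peaks they were 4.32% with 50% of both shared, 4.19% at the widths of shared peaks and 2.13% without those regions. Shared peaks stayed above GV-only peaks in the settings run on both classes. In the last 2 Mb in place of 5 Mb, relative density was 0.927 for all 8-cell peaks, 2.22 for shared 8-cell peaks, 0.901 for 8-cell-only, 3.17 for all GV and 2.14 for shared GV peaks. Settings for the chromosome starts were added after seeing the data. In the first 2 Mb the densities were 0.956 for all 8-cell peaks, 3.60 for shared 8-cell peaks, 3.75 for shared GV peaks, 0.857 for GV-only peaks and 1.67 for all GV peaks, which changed side from 0.966. Without the 10 fullest GV windows the starts stood at 0.711 for all GV peaks, 1.003 for shared GV peaks and 0.994 for shared 8-cell peaks, which changed side from 1.67. Ratios of the 6 named chromosomes kept their direction in both settings run. The causes were not tested. Depth per library is unknown and limits every statement on regions absent from a list.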
